A study of Ovis aries with 16 samples.

Results

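The HOX genes of sheep fat were described in 16 RNA sequencing libraries, as every row of the deposited table whose symbol is HOX, a cluster letter from A to D and a paralogue number. This rule took 37 of 28524 rows, and it used no measured value. They were 11 genes of the HOXA cluster, 9 of HOXB, 9 of HOXC and 8 of HOXD. HOXB4 and HOXD4 are not analysed here. The fat came from female sheep about 21 months old, kept on a maintenance diet, whose mothers had been injected daily under the skin between gestation days 30 and 90, with term at 147 days. BPA mothers received 0.5 mg/kg/day of bisphenol A (BPA), a plastics monomer with weak oestrogen activity, in corn oil, and control mothers received the corn oil alone. Subcutaneous fat was taken over the sternum, and visceral fat was mesenteric, from beside the rumen's ventral sac. All the ewes had 2 injections of prostaglandin F2α 11 days apart, and tissue was taken 24 hours after the second.

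The 4 groups held 4 libraries each. Libraries are named by the number in their title: 902, 908, 924 and 928 in visceral control fat, 910, 918, 977 and 984 in visceral BPA fat, 902, 924, 928 and 931 in subcutaneous control fat, and 918, 922, 941 and 977 in subcutaneous BPA fat. Of 11 numbers, 5 occur in both depots, 3 of them control and 2 BPA. The labels do not state that a number is an animal, so p-values measure the spread between these libraries. No number is both control and BPA, so the comparison of depots in control ewes and that in BPA ewes share no library.

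HOX genes encode homeodomain transcription factors that give cells of the embryo their position along the head-to-tail axis. Within each cluster the genes lie in order of paralogue number, low numbers acting towards the head and high numbers towards the tail, and genes of equal number in different clusters are paralogues. Connective tissue cells, fat progenitors among them, keep a HOX pattern of their place of origin in the adult. Members are grouped here as anterior (paralogues 1 to 3), central (4 to 8) and posterior (9 to 13). The clusters are compact: in the coordinates of the deposited table, HOXA spans chr4:75724265-75830381, HOXB chr11:25368461-25535076, HOXC chr3:141999542-142115277 and HOXD chr2:144547278-144643338, which is 106.1, 166.6, 115.7 and 96.1 kb. The sources used here name no build. The sequence accessions are those of the Oar_rambouillet_v1.0 assembly, and chromosome numbers were assigned by the symbols shared with RefSeq's ARS-UI_Ramb_v3.0 gene table.

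Library totals ranged from 6.77 M to 14.31 M counts in visceral fat and from 3.05 M to 6.22 M in subcutaneous fat, so depth and depot cannot be told apart in raw counts. HOX rows took 41936 counts in all. Adipocyte markers were abundant in every group, with 13 listed genes in the table, summed levels of 13800 to 35700 CPM (read counts scaled to a common library total, the usual CPM) and none at 0; the first of that list, ADIPOQ, ranged from 3360 to 12800. Subcutaneous controls 902 and 924 were set apart in an earlier examination of these data. HOX calls, the posterior share and the bounds of HOXA10 and HOXC10 are given with and without them. The marker, list and opposite-strand results are given only with them.

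Of the 37 members, 6 had no count in any library: HOXB1, a hindbrain gene, HOXD1, HOXC12, HOXD12, and the tail-end genes HOXB13 and HOXD13, which pattern the hindgut, urogenital tract and digits. A further 5 had between 1 and 10 counts over all libraries, namely HOXA11, HOXA13, HOXC11, HOXC13 and HOXD11. Signal beyond paralogue 10 was therefore at the limit of detection in both depots. For a member at 0, the 3 counts that a count of 0 allows correspond to at most 0.0657 CPM over the visceral control libraries, for counting error only. HOXA5, known as a regulator of fat cells, drew 25 counts in all, but 99.3% of its exon bases are also exon bases of HOXA6 on the same strand, so reads from these cannot be told apart and the low count says little of HOXA5.

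To compare genes, CPM was divided by the deposited gene length in kilobases. On this scale HOXB7 stood highest over the 16 libraries with a mean of 24.9 CPM per kb, followed by HOXC6 with 19.1 and HOXB6 with 15.4. HOXB7 was first of the 37 in visceral control fat, visceral BPA fat and subcutaneous BPA fat, while HOXC6 was first in subcutaneous control fat. Neighbours in this order overlapped: in subcutaneous control fat HOXC6 ranged from 21.8 to 29.7 CPM per kb, HOXB7 from 12.4 to 23.6 and HOXB6 from 4.27 to 32.2. The order of the posterior genes differed by depot, HOXC9 being 20th in visceral control fat and 4th in subcutaneous control fat, and HOXA9 25th and 9th.

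**Figure D1:**
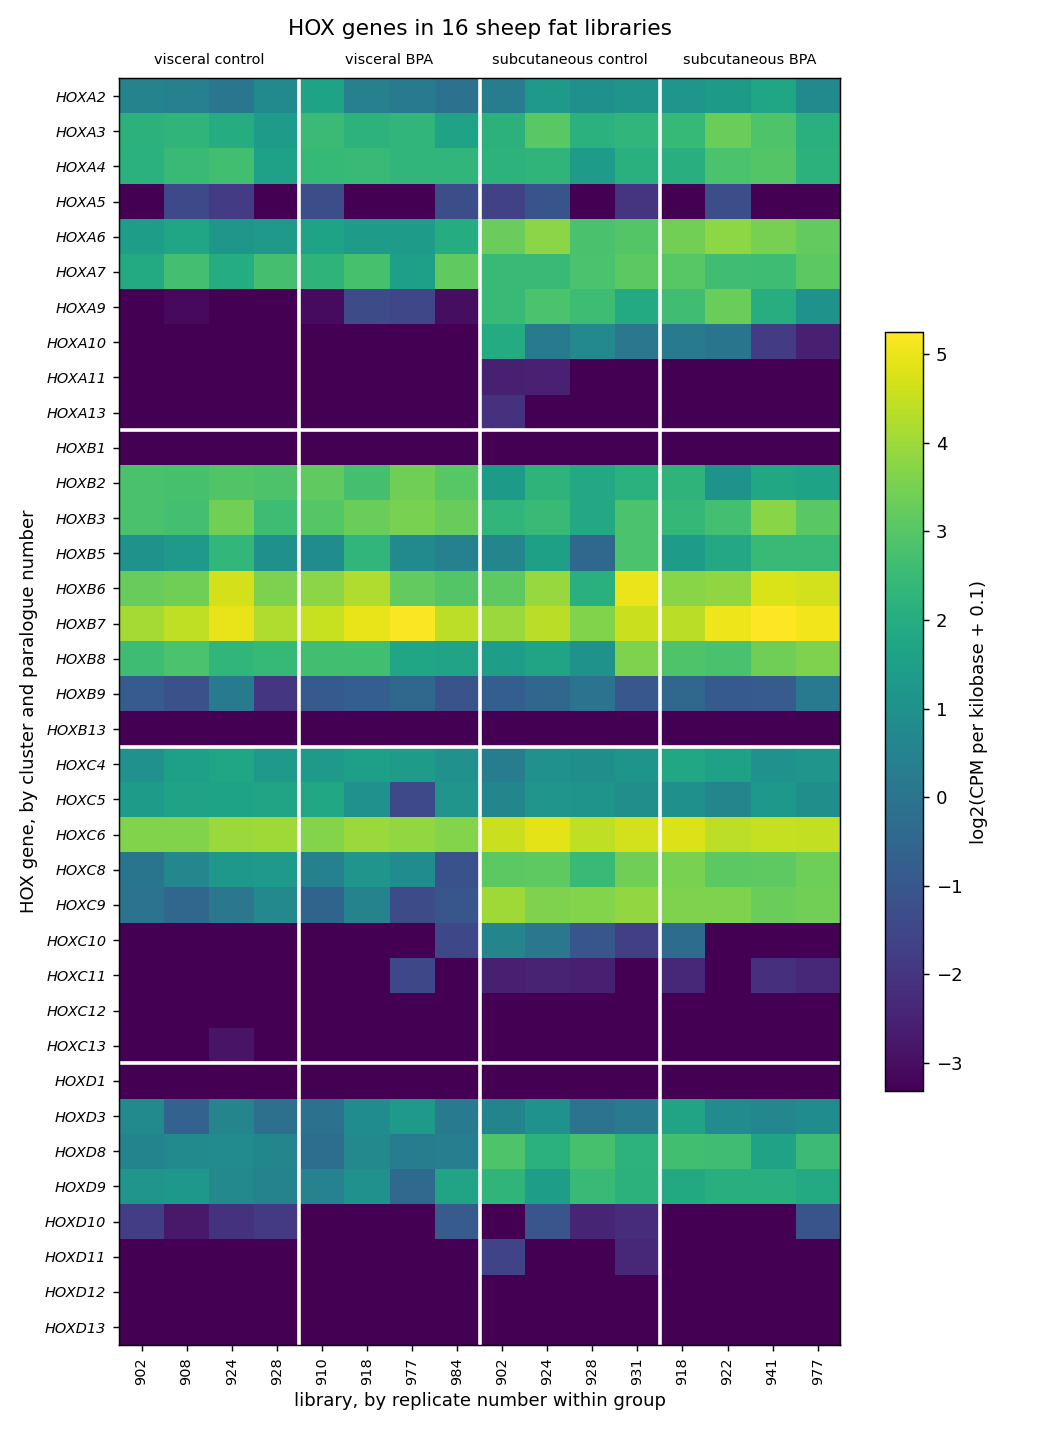
Levels of 36 of the 37 HOX genes in the 16 libraries, as log2 of CPM per kilobase plus 0.1, with genes in rows by cluster and paralogue number, libraries in columns and white lines between clusters and groups. HOXB6, HOXB7 and HOXC6 are the brightest of their clusters in most columns, whereas HOXA9, HOXA10, HOXC8 and HOXC9 are brighter in every subcutaneous column than in any visceral one.

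The HOX sum in CPM per kb was 106.6 ± 19.6 (SD, n = 4) in visceral control, 113.1 ± 13.1 in visceral BPA, 149.8 ± 29.9 in subcutaneous control and 178.2 ± 13.2 in subcutaneous BPA fat. Posterior genes made up 3.30% ± 0.51 of it in visceral control fat (2.75% to 3.98%) and 18.9% ± 5.33 in subcutaneous control fat (13.3% to 23.6%), with no overlap. Subcutaneous controls 928 and 931 on their own stood at 23.3% and 13.3%, still above every visceral library. In BPA ewes the posterior share was 2.95% ± 1.32 in visceral fat (1.82% to 4.75%) and 12.5% ± 3.05 in subcutaneous fat (9.63% to 15.5%), again with no overlap. Anterior genes held a larger share in visceral fat, 21.4% ± 2.69 against 12.6% ± 1.90 in control ewes and 24.4% ± 3.61 against 13.7% ± 1.93 in BPA ewes. Their sums in CPM per kb overlapped, however. These were 19.45 to 25.98 in visceral and 15 to 24.51 in subcutaneous control fat. In BPA ewes they were 23.47 to 32.7 and 20.7 to 31.65. Central genes held most of the sum in all 4 groups, with means of 68.4% to 75.3%. These shares are descriptions, with no test over members.

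**Figure D2:**
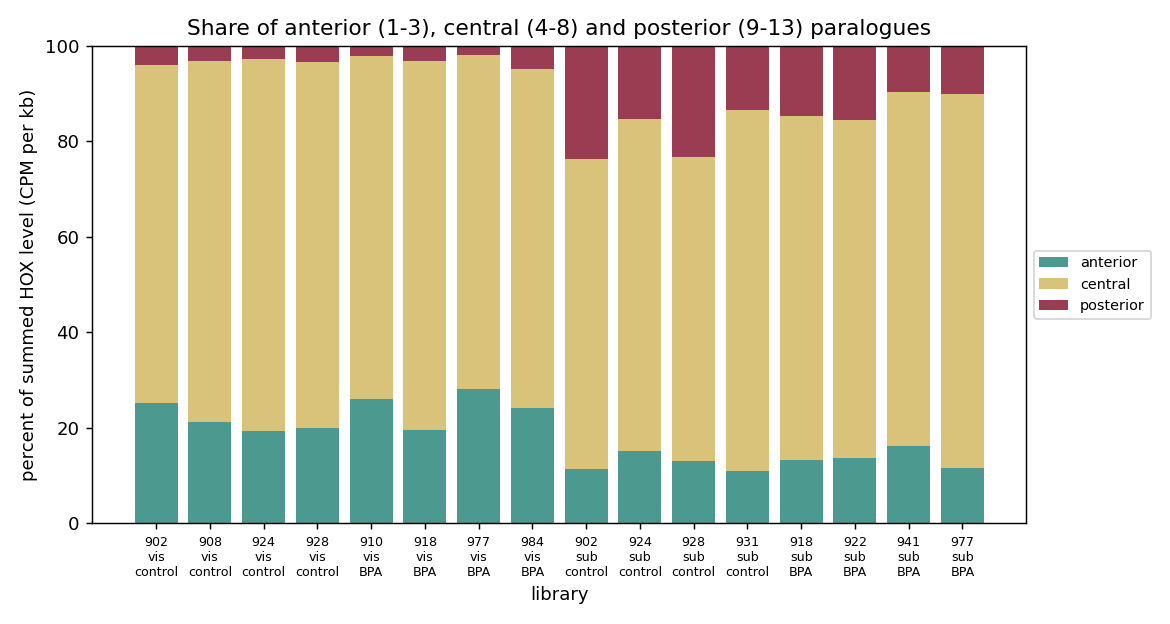
Share of the summed HOX level (CPM per kilobase, in percent) held by anterior, central and posterior paralogues, as 1 stacked bar for each of the 16 libraries. The posterior segment lies between 1.82% and 4.75% in the 8 visceral libraries and between 9.63% and 23.6% in the 8 subcutaneous ones.

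By cluster, HOXB held 55.7% ± 5.49 of the sum in visceral control fat and 32.2% ± 10.5 in subcutaneous control fat, the largest share of any cluster in the former. HOXC held 21.2% ± 3.40 and 35.0% ± 3.97, HOXA 18.8% ± 3.68 and 24.7% ± 4.57, and HOXD 4.36% ± 1.01 and 8.13% ± 2.89. The HOXC sum was 22.3 ± 3.44 CPM per kb in visceral and 51.5 ± 5.20 in subcutaneous control fat, without overlap, while the HOXB sums were 60.2 ± 17.7 and 50.4 ± 26.2 and overlapped.

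The first comparison set visceral against subcutaneous fat in control ewes. Low counts were filtered out and genes were tested with edgeR's quasi-likelihood test with Benjamini-Hochberg adjustment over all genes that passed, an adjusted p under 0.05 being called. Of the 37 members, 23 passed the filter, and 9 were called: HOXB2 was higher in visceral fat, and HOXA6, HOXC6, HOXC8, HOXD8, HOXA9, HOXC9, HOXD9 and HOXA10 were lower. Over all 14456 genes tested 13.3% were called, 7.17% higher and 6.16% lower, against 4.35% higher and 34.8% lower of the HOX genes tested. The groups did not overlap for 10 of the 23, the 9 called and HOXC5, against 19.9% of all genes. The median log2 difference of the tested members was -0.29, beside -0.01 over all genes. Members that pass a filter only through their high group had to differ, HOXA9, HOXA10 and HOXC9 among them. The counts, shares and median here therefore describe the members that passed and not all 37. In bulk tissue, fewer cells of a type and less RNA per cell cannot be told apart.

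**Figure D3:**
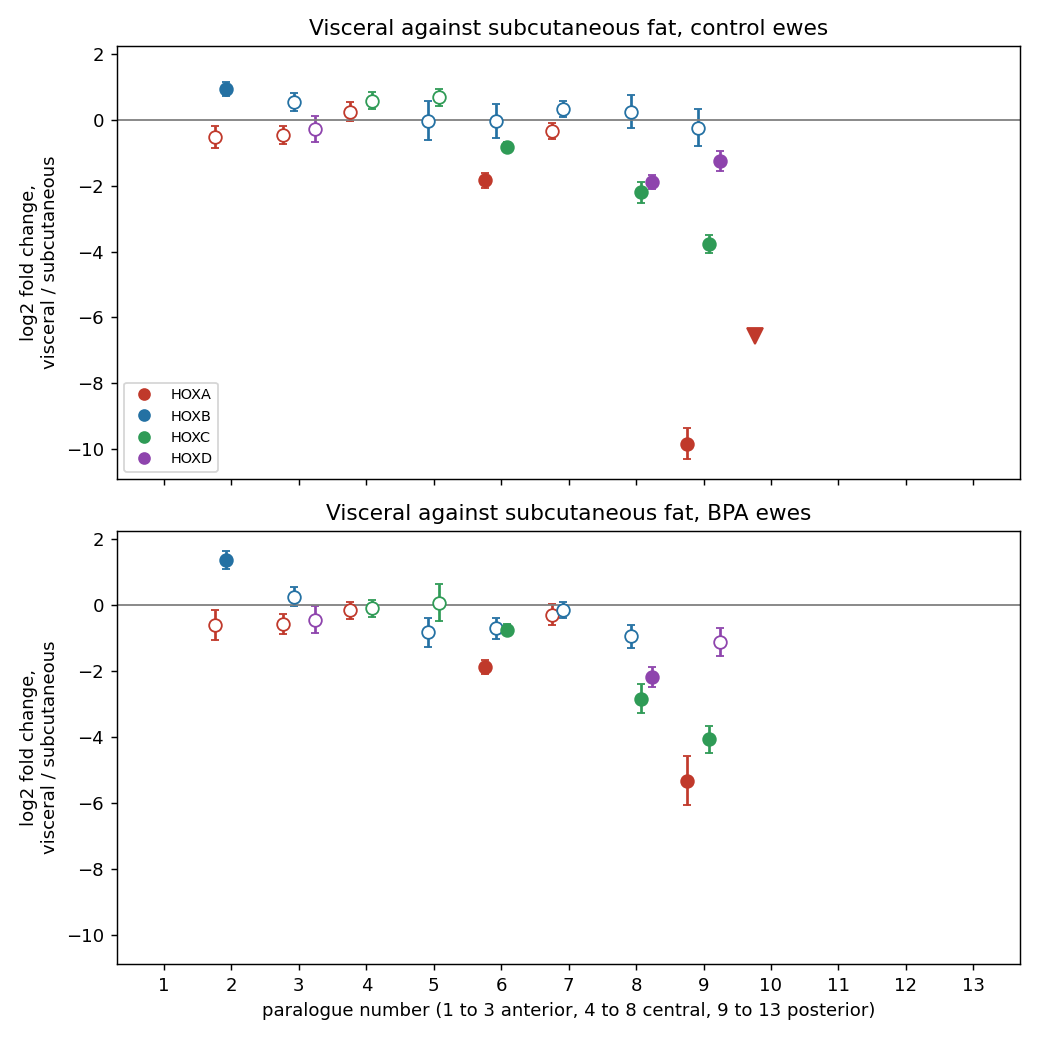
Log2 fold change of visceral over subcutaneous fat (± SE) for the tested HOX genes shown, by paralogue number, in control ewes above and BPA ewes below; colours give the cluster, filled points are called, open points are not. The triangle marks HOXA10, at 0 counts in visceral control fat, drawn at its bound of -6.56. The filled points fall below 0 from paralogue 6 on, and HOXB2 is the 1 filled point above 0. The HOXA9 bar in control ewes does not cover the counting error of its 1 visceral count.

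Among anterior genes, 1 of 6 tested was called, or 16.7%, near the 13.3% of all genes, and the other 5 were not. HOXB2, which patterns the hindbrain, stood at 19.5, 19.4, 21.7 and 20.5 CPM in visceral controls 902, 908, 924 and 928 and at 7.0, 13.4, 10.2 and 12.7 CPM in subcutaneous controls 902, 924, 928 and 931. Every visceral library lay above every subcutaneous one, and the visceral values were close together. The level was 1.89-fold higher in visceral fat (log2 0.92 ± 0.21 SE, adjusted p = 0.0174). HOXA2, HOXA3, HOXB3 and HOXD3 had log2 differences from -0.54 to 0.53 and overlapping groups, the smallest adjusted p being 0.203 for HOXB3, a gene of the neck region. Of HOXB3's exon bases, 22.7% also lie in an opposite-strand row, LOC105608416, which was tested and not called.

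Among central genes, 4 of 12 tested were called, or 33.3%, all lower in visceral fat, beside 6.16% called lower of all genes. HOXA6, a gene of the thoracic region, measured 10.4, 12.7, 8.88 and 9.60 CPM in visceral controls 902, 908, 924 and 928 against 38.8, 53.8, 26.8 and 30.7 CPM in subcutaneous controls 902, 924, 928 and 931. The lowest subcutaneous library was above the highest visceral one, and the difference was 3.60-fold (log2 -1.85 ± 0.23 SE, adjusted p = 0.000997). Of HOXA6's exon bases 35.4% lie in HOXA5, where reads of these genes cannot be told apart. HOXA5 drew 25 counts in all and HOXA6 2584. Whether HOXA6's level leaves out reads from the shared part was not tested.

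HOXC6, the second most abundant member per kilobase, gave 20.2, 20.1, 25.3 and 26.5 CPM in visceral controls 902, 908, 924 and 928 and 38.4, 48.8, 35.7 and 41.9 CPM in subcutaneous controls 902, 924, 928 and 931. This was the smallest called difference, 1.78-fold (log2 -0.83 ± 0.16 SE, adjusted p = 0.00815), without overlap. HOXC8, which is known to hold back brown fat formation in white fat progenitors, gave 1.96, 3.22, 5.0 and 5.12 CPM against 18.4, 18.7, 11.8 and 22.5 CPM in the same order. All 4 visceral libraries were low, and the fall was 4.61-fold (log2 -2.20 ± 0.32 SE, adjusted p = 0.00213).

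HOXD8, the highest member of the HOXD cluster per kilobase over the 16 libraries, read 5.61, 6.72, 6.90 and 5.86 CPM in visceral controls 902, 908, 924 and 928, and 30.0, 17.9, 27.4 and 18.8 CPM in subcutaneous controls 902, 924, 928 and 931. It was 3.74-fold lower in visceral fat (log2 -1.90 ± 0.21 SE, adjusted p = 0.000582), with the visceral libraries tightly grouped. The 8 central genes that were not called had log2 differences from -0.36 (HOXA7) to 0.67 (HOXC5). HOXC5 ran the other way from its neighbour HOXC6, with 5.70 to 6.75 CPM in visceral and 3.11 to 4.64 CPM in subcutaneous fat and no overlap, but its adjusted p was 0.102.

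Of the 16 posterior members 5 passed the filter, and 4 of these were called lower in visceral fat, beside 6.16% of all genes tested. HOXA9, HOXA10 and HOXC9 passed only with the subcutaneous libraries, where they were high. The count of 4 is therefore a description of those that passed and not of the 16. HOXA9, best known from blood progenitors and leukaemia, had 213, 243, 224 and 108 counts in subcutaneous controls 902, 924, 928 and 931, or 33.1, 41.8, 35.1 and 22.1 CPM. In the visceral controls it had a single count, in 908, although these libraries were deeper. The ratio of summed levels, 788 counts against 1, was 1530, with an exact 95% interval of 274 to 60600 that covers counting error only. The fitted log2 difference was -9.83 (adjusted p = 2.2e-06 by edgeR), a size that a single visceral count does not fix.

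HOXA10, a regulator of the uterus and posterior trunk next to HOXA9, had 79, 20, 32 and 15 counts in subcutaneous controls 902, 924, 928 and 931 (12.3, 3.44, 5.01 and 3.07 CPM), and 0 in every visceral control. Against a floor of 3 counts over the visceral group it was at least 94.6-fold lower there (adjusted p = 0.00187). Of these counts 79 came from 902, and the bound was 59.7-fold without 902 (adjusted p = 0.0023) and 63.5-fold without 902 and 924 (adjusted p = 0.0079). HOXC10, which has been linked to lower-body subcutaneous fat in humans, showed the same split below the filter, with 18, 11, 5 and 2 counts in the subcutaneous controls and 0 in the visceral ones, at least 23.3-fold lower, or 9.46-fold without 902 and 924. HOXD10, by contrast, had 4, 1, 3 and 4 counts in the visceral controls and 0, 4, 1 and 1 in the subcutaneous ones, too few to compare. Tested without a filter on low counts, HOXC10 had an adjusted p of 0.00552 by edgeR.

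HOXC9, used as a marker of white fat cells, gave 1.34, 0.95, 1.47 and 2.36 CPM in visceral controls 902, 908, 924 and 928 and 24.7, 18.6, 19.3 and 22.5 CPM in subcutaneous controls 902, 924, 928 and 931. It was detected in both depots, yet 13.6-fold lower in visceral fat (log2 -3.77 ± 0.28 SE, adjusted p = 3.52e-05). HOXD9 gave 4.72, 5.11, 3.45 and 3.01 CPM against 10.7, 6.02, 12.2 and 10.0 CPM in the same order. Its groups came closest without overlap, at 5.11 and 6.02 CPM, and the 2.39-fold fall (log2 -1.25 ± 0.29 SE, adjusted p = 0.0187) lost its call without visceral control 928 (adjusted p = 0.0548) or without subcutaneous control 928 (adjusted p = 0.0541).

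HOXB9, the fourth paralogue of that number, was low in both depots, at 0.41 to 2.67 CPM in visceral and 1.02 to 2.19 CPM in subcutaneous control fat, with a log2 difference of -0.25 ± 0.56 SE (adjusted p = 0.807). So within paralogue groups 6, 8 and 9 the tested members of HOXA, HOXC and HOXD were called lower in visceral fat, and the HOXB members were not; whether HOXB differs from its paralogues was not tested. For HOXB6 and HOXB8 the log2 differences were -0.05 ± 0.52 SE and 0.24 ± 0.50 SE, so their spread between libraries was wide. HOXB6 reached 167 CPM in visceral control 924 and 205 CPM in subcutaneous control 931, against 27.3 CPM in subcutaneous control 928.

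**Figure D4:**
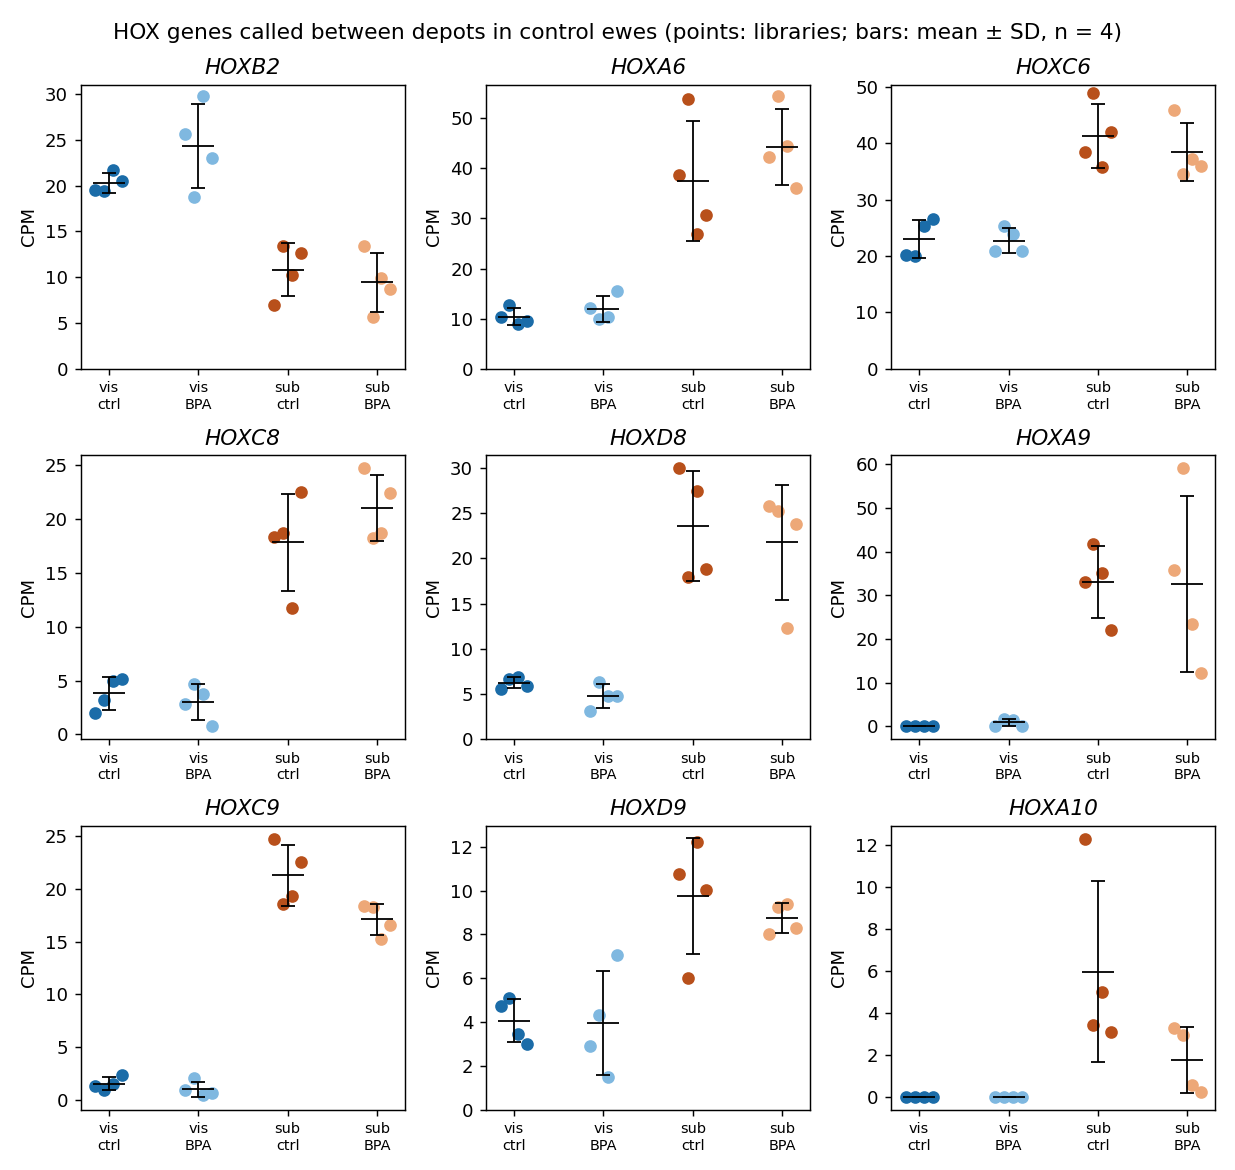
CPM of the 9 HOX genes called between depots in control ewes, in all 4 groups; each point is a library and bars give mean ± SD (n = 4). In HOXA6, HOXC6, HOXC8, HOXD8, HOXA9, HOXC9, HOXD9 and HOXA10 the visceral points lie below the subcutaneous points of the same treatment, and in HOXB2 above them.

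Control libraries that share a title number deviated together from their group means, so the depot difference was also fitted with the number as a block, which rests on 902, 924 and 928. The 9 calls were kept, and HOXB3 (log2 0.74 ± 0.23 SE, adjusted p = 0.0441), HOXB5 (0.92 ± 0.27 SE, adjusted p = 0.0388) and HOXB6 (0.79 ± 0.21 SE, adjusted p = 0.028) were called higher in visceral fat as well, so 4 members rather than 1 were higher. The share of all genes called under this block is not given here. Whether the added calls are particular to HOX genes therefore cannot be told. Without subcutaneous controls 902 and 924 the same 9 members were called, and without subcutaneous control 931 HOXB8 was called higher too (log2 1.14 ± 0.31 SE, adjusted p = 0.0429). HOXA10 passed neither a filter of 50 counts in 4 libraries nor the usual filter after thinning every library to 3046126 counts.

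Along the HOXC cluster the sign of the estimates changed between HOXC5 and HOXC6. HOXC4 and HOXC5 had log2 differences of 0.57 ± 0.25 SE and 0.67 ± 0.25 SE, neither called, and the estimates then went to -0.83 at HOXC6, -2.20 at HOXC8 and -3.77 at HOXC9. In HOXA the order was not monotonic, since HOXA6 was called at -1.85 while HOXA7, lying between HOXA6 and HOXA9, was at -0.36 ± 0.24 SE (adjusted p = 0.346). The tested HOXB genes stayed within -0.25 to 0.92 over the whole cluster. In HOXD the estimates were -0.29 ± 0.40 SE at HOXD3, -1.90 ± 0.21 SE at HOXD8 and -1.25 ± 0.29 SE at HOXD9. The largest HOXD estimate was thus not at the highest number tested. HOXA9, HOXA10 and HOXC9 passed the filter only with the subcutaneous libraries, so the order describes the tested members only.

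**Figure D5:**
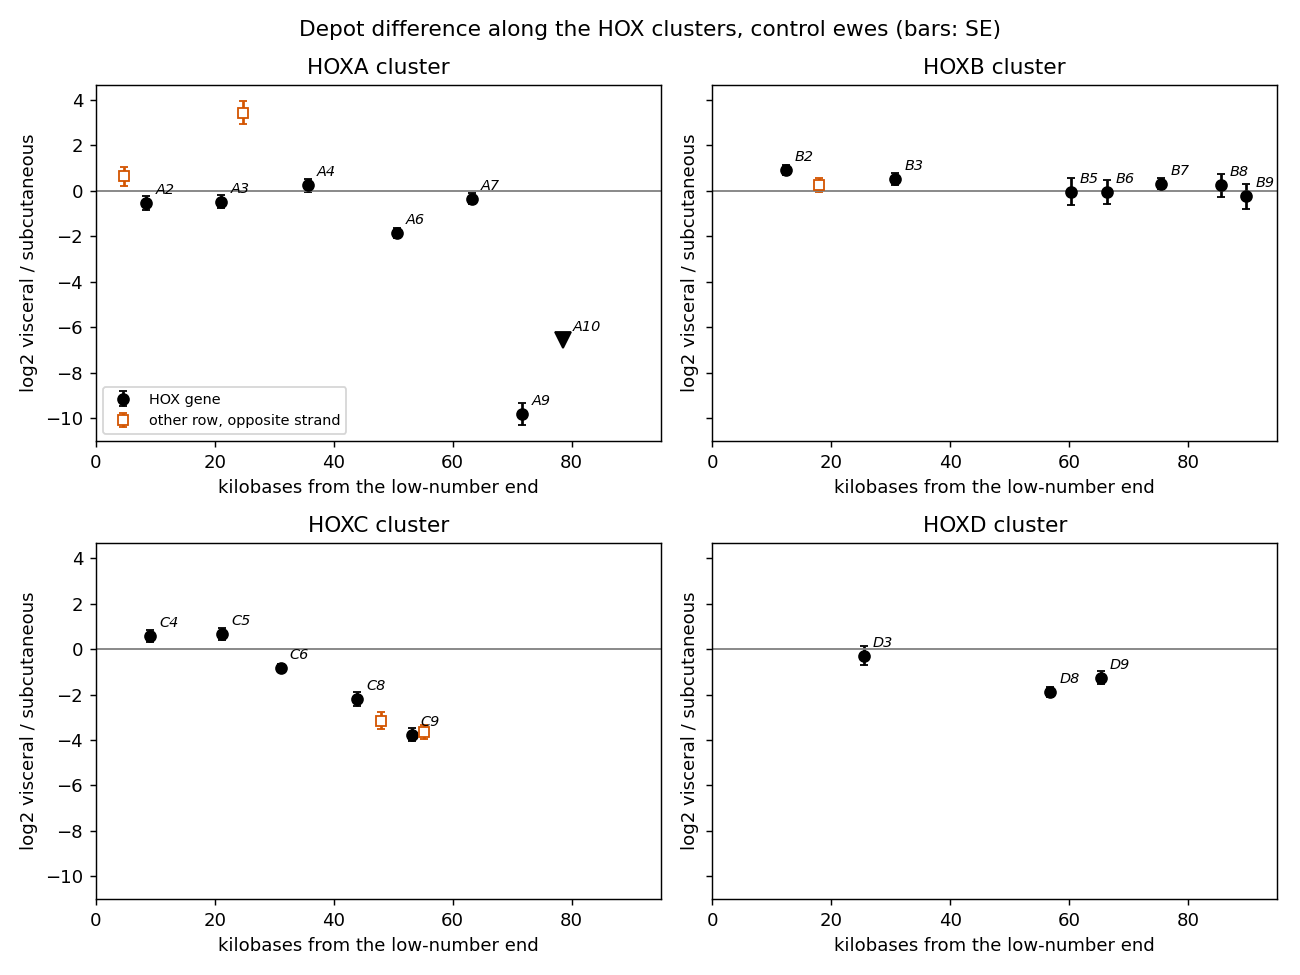
Log2 fold change of visceral over subcutaneous fat in control ewes (± SE) against distance in kilobases from the low-number end of each cluster; black points are the HOX genes shown, the triangle is HOXA10 at its bound and open squares are other rows on the opposite strand. Differences are largest towards the high-number end in HOXA and HOXC, at -9.83 at HOXA9 and -3.77 at HOXC9, and the HOXB points lie between -0.25 and 0.92. In HOXD the estimate is -1.90 at HOXD8 and -1.25 at HOXD9. HOXA9, HOXA10 and HOXC9 passed the filter only with the subcutaneous libraries, where they were high. The HOXA9 bar does not cover the counting error of its 1 visceral count.

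The clusters also hold 15 other rows, 13 of them on the strand opposite to the HOX genes and the remaining 2 the microRNA genes MIR10A and MIR10B, which had 15 and 19 counts in all and were not tested. Of the 5 rows tested, 3 were called, beside 13.3% of all genes. Each of the 3 passed the filter only with the depot where it was high, so this count does not stand for the 15 rows. LOC114113971, between HOXC8 and HOXC9, averaged 0.57 ± 0.16 CPM in visceral and 5.20 ± 1.26 CPM in subcutaneous control fat (log2 -3.16 ± 0.38 SE, adjusted p = 0.000825). LOC105614720, which starts inside HOXC9, averaged 0.88 ± 0.31 and 11.3 ± 0.70 CPM (log2 -3.64 ± 0.31 SE, adjusted p = 8.91e-05). It shares 36.1% of its exon bases with HOXC9, and 24.4% of HOXC9's exon bases lie in it; the strand setting is not given in the sources used here, so reads from the shared part cannot be told apart.

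LOC114114527, which runs opposite to HOXA3, went the other way. It had 2.05, 3.31, 2.67 and 1.79 CPM in visceral controls 902, 908, 924 and 928 and 0.16, 0.34, 0.16 and 0.20 CPM in subcutaneous controls 902, 924, 928 and 931, the latter from 1 or 2 counts each. It was 10.9-fold higher in visceral fat (log2 3.44 ± 0.51 SE, adjusted p = 0.0022), whereas HOXA3 itself, with 2.89% of its exon bases shared with this row, was at -0.48 ± 0.27 SE (adjusted p = 0.266).

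The same comparison in BPA ewes used other libraries. Of the 37 members, 21 were tested and 7 were called, HOXB2 higher and HOXA6, HOXC6, HOXC8, HOXD8, HOXA9 and HOXC9 lower in visceral fat, which is 33.3% of those tested against 9.07% of all 13782 genes, 5.13% higher and 3.94% lower. The groups did not overlap for 9 members, the 7 called, HOXD9 and HOXB8, against 18.6% of all genes. All 7 had been called in the same direction in control ewes, which is 77.8% of the 9 calls there and 100% of the 7 here. Of all genes called, 690 were called in both with the same direction, 35.8% of the control list and 55.2% of the BPA list. The median log2 difference of the tested members was -0.61, beside 0.02 over all genes. Of the 7 called, HOXC8, HOXA9 and HOXC9 passed the filter only with the subcutaneous libraries, where they were high. The counts and the median here therefore describe the members that passed and not all 37.

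HOXB2 measured 25.6, 18.8, 29.8 and 23.0 CPM in visceral BPA libraries 910, 918, 977 and 984 and 13.4, 5.64, 9.96 and 8.75 CPM in subcutaneous BPA libraries 918, 922, 941 and 977 (log2 1.36 ± 0.28 SE, adjusted p = 0.0163). The visceral libraries were again all higher. HOXA6 measured 12, 9.91, 10.3 and 15.5 CPM against 42.2, 54.4, 44.5 and 36.1 CPM in the same order (log2 -1.89 ± 0.21 SE, adjusted p = 0.00138), a 3.70-fold fall. HOXC6 measured 20.9, 25.3, 23.9 and 20.9 CPM against 45.9, 34.5, 37.2 and 35.9 CPM (log2 -0.76 ± 0.17 SE, adjusted p = 0.0216), without overlap, and lost its call when visceral BPA 910 or subcutaneous BPA 918, 922 or 941 was left out, with an adjusted p of 0.051 to 0.0666.

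HOXC8 was at 2.79, 4.67, 3.74 and 0.75 CPM in visceral BPA libraries 910, 918, 977 and 984, and at 24.7, 18.3, 18.8 and 22.4 CPM in subcutaneous BPA libraries 918, 922, 941 and 977 (log2 -2.84 ± 0.44 SE, adjusted p = 0.00628). HOXD8 was at 3.12, 6.38, 4.79 and 4.82 CPM against 25.8, 25.3, 12.3 and 23.8 CPM (log2 -2.19 ± 0.31 SE, adjusted p = 0.00436). Subcutaneous library 941 was the lowest of its group for HOXD8 but still above all visceral libraries. HOXC9 was at 0.89, 2.05, 0.45 and 0.60 CPM against 18.3, 18.3, 15.2 and 16.6 CPM (log2 -4.08 ± 0.42 SE, adjusted p = 0.001), a 16.9-fold fall.

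HOXA9 had 1, 15, 10 and 2 counts in visceral BPA libraries 910, 918, 977 and 984, or 0.11, 1.71, 1.5 and 0.15 CPM, and 35.8, 59.1, 23.4 and 12.1 CPM in subcutaneous BPA libraries 918, 922, 941 and 977. The fall was 40.2-fold (log2 -5.33 ± 0.74 SE, adjusted p = 0.00428). HOXA10 did not pass the filter: it had 0 counts in every visceral BPA library and 16, 13, 2 and 1 in the subcutaneous ones, at least 23.4-fold lower in visceral fat. HOXC10 had 7 counts in visceral library 984 and 7 in subcutaneous library 918, and 0 elsewhere in BPA ewes. HOXD9, called in control ewes, measured 2.90, 4.33, 1.5 and 7.08 CPM against 8.04, 9.25, 9.38 and 8.30 CPM here, without overlap but with an adjusted p of 0.114 (log2 -1.12 ± 0.42 SE).

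HOXB8 was the other member without overlap and without a call in BPA ewes, with 3.39 to 6.83 CPM in visceral and 7.44 to 13.2 CPM in subcutaneous fat (log2 -0.96 ± 0.35 SE, adjusted p = 0.104), while in control ewes its estimate was 0.24. Of the 21 members tested in both comparisons, 16 had the same sign, and the 5 exceptions, HOXA4, HOXB7, HOXB8 and HOXC4 among them, were called in neither. The 3 opposite-strand rows were called in the same directions as in control ewes: LOC114113971 (log2 -4.62 ± 0.69 SE, adjusted p = 0.00497) and LOC105614720 (-4.47 ± 0.46 SE, adjusted p = 0.001) were lower and LOC114114527 was higher (3.75 ± 0.64 SE, adjusted p = 0.00899). Here too each of the 3 passed the filter only with the depot where it was high.

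Some cell type markers also differed between depots. Over all genes 7.17% were called higher and 6.16% lower in visceral fat of control ewes, and 5.13% and 3.94% in BPA ewes. The counts of markers below are to be read against these shares. In control ewes 6 of 7 tested mesothelial markers were higher in visceral fat, with summed levels of 60.6 to 133 CPM against 4.30 to 9.34 CPM. LRRN4 was at 0 in subcutaneous fat of both treatments, and CALB2 was at 0 in visceral BPA fat. MSLN averaged 2.84 CPM in visceral and 0.08 CPM in subcutaneous control fat. In BPA ewes 2 of 3 tested mesothelial markers were higher, with sums of 31.6 to 351 CPM against 1.85 to 5.83 CPM. The others of the 10 listed did not pass the filter, so these counts do not stand for the whole list. Of 11 adipose stromal markers 4 were lower in visceral control fat, with sums of 2610 to 3620 CPM against 5530 to 7940 CPM. In BPA ewes 2 of 11 stromal markers were lower and the sums overlapped, at 1850 to 5350 CPM in visceral and 3180 to 5550 CPM in subcutaneous fat. PDGFRA, a receptor of fibroblasts and fat progenitors, was not called in either comparison (adjusted p = 0.31 and 0.524). Skeletal muscle markers summed to 130 to 234 CPM in visceral and 292 to 488 CPM in subcutaneous control fat, and to 130 to 239 and 490 to 1320 CPM in BPA ewes. Smooth muscle markers summed to 1270 to 2100 CPM against 783 to 1110 CPM in control ewes, with 1 of 9 called higher in visceral fat in each treatment. In control ewes 3 of 13 adipocyte, 2 of 8 endothelial, 1 of 5 nerve and Schwann, 1 of 8 macrophage and 0 of 6 lymphocyte markers were called, each higher in visceral fat. For BPA ewes the counts were 0 of 13, 1 of 8, 1 of 5, 2 of 8 and 0 of 4, again each higher. Of the skeletal muscle markers, 2 of 3 tested were lower in visceral fat of control ewes and 1 of 3 in BPA ewes. Skin and gut epithelium markers summed to 16.8 CPM or less in every library, and KRT5, KRT4 and KRT6A were at 0 in all groups. The part of these cells in the HOX differences was not tested.

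The second question was whether prenatal BPA went with a different HOX level within a depot. In subcutaneous fat 22 members were tested and edgeR called 0, against 0.709% of all 13535 genes; DESeq2 also called 0 members, and 2 had an unadjusted p under 0.05, against 14.2% of all genes. These values share the subcutaneous control libraries with the depot comparison in control ewes. HOXB7, the most abundant member per kilobase, had the smallest p: it measured 28.2, 45.3, 52.2 and 46.2 CPM in BPA libraries 918, 922, 941 and 977 and 21.0, 27.9, 16.9 and 32.3 CPM in controls 902, 924, 928 and 931. The groups overlapped at library 918, and the log2 difference was 0.82 ± 0.24 SE (adjusted p = 0.177 by edgeR).

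HOXA10 was the other, with 3.30, 2.93, 0.59 and 0.22 CPM in BPA libraries 918, 922, 941 and 977 and 12.3, 3.44, 5.01 and 3.07 CPM in the controls (log2 -1.71 ± 0.67 SE, adjusted p = 0.29 by edgeR). Libraries 941 and 977 rested on 2 counts and 1. HOXC9 was the 1 tested member whose groups did not overlap, with 15.2 to 18.3 CPM in BPA and 18.6 to 24.7 CPM in control fat, against 7.43% of all genes without overlap, and its adjusted p was 0.419 (log2 -0.31 ± 0.16 SE). Of the 22 tested members 15 had a positive estimate, with a median of 0.27 beside -0.01 over all genes. All 4 posterior members tested were below 0 and 10 of the 12 central members above it, none of them called. HOXB8, at 7.44 to 13.2 CPM in BPA and 2.19 to 13.1 CPM in control fat, was called higher once subcutaneous control 931 was left out (log2 1.81 ± 0.34 SE, adjusted p = 0.0426). Without subcutaneous controls 902 and 924, edgeR called 0 members, and its calls over all genes went from 96 to 0. Beside this, adipose stromal markers stood at 3180 to 5550 CPM in BPA and 5530 to 7940 CPM in control fat, macrophage markers at 315 to 510 and 573 to 817 CPM, and skeletal muscle markers at 490 to 1320 and 292 to 488 CPM; their part was not tested.

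In visceral fat 21 members were tested and edgeR called 0, as it did for all 14774 genes (0%); 0 members had an unadjusted p under 0.05, against 7.47% of all genes, and DESeq2 called 0 members. No tested member had groups without overlap, against 4.03% of all genes. HOXB3 had the smallest p, with 14.2, 17.8, 20.5 and 16.9 CPM in BPA libraries 910, 918, 977 and 984 and 12.1, 11.4, 19.0 and 10.7 CPM in controls 902, 908, 924 and 928. Visceral control 924 lay among the BPA values, and the log2 difference was 0.39 ± 0.23 SE (adjusted p = 0.676 by edgeR). The estimates ran from -0.61 (HOXC9) to 0.45 (HOXD3), with a median of -0.02.

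HOXA9 did not pass the filter in visceral fat. Its 28 counts in the BPA libraries, 15 of them in 918 and 10 in 977, compare with 1 count in the controls, a ratio of 33.9 with an exact 95% interval of 5.61 to 1390 that covers counting error between these libraries only. Without 918 the ratio was 20.5, with an interval of 3.08 to 872. The lowest BPA library, at 0.112 CPM, lay just above the highest control, at 0.095 CPM. Tested without a filter, HOXA9 had a log2 difference of 4.62 ± 1.38 SE and an adjusted p of 0.705 by edgeR.

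The difference between the depot differences of BPA and control ewes was tested on all 16 libraries. Of 23 members edgeR called 0, as it did for all 14793 genes (0%), DESeq2 called 0 members, and 1 had an unadjusted p under 0.05, against 6.2% of all genes. That member was HOXA9, whose depot difference was less negative in BPA ewes (log2 4.42 ± 1.35 SE, adjusted p = 0.649 by edgeR). With the title number as a block HOXA9 was called (log2 7.34, adjusted p = 0.0432), the adjusted p over the other alternatives being 0.176 to 1. That estimate rests on numbers found in both depots. Visceral controls 902, 924 and 928 had 0 HOXA9 counts, and visceral BPA 918 and 977 had 15 and 10. Visceral BPA 910 and 984, with 1 and 2 counts, did not inform it. The control depot difference then has no upper bound, so 7.34 is no measure of size. Pairing was not established in BPA ewes. Without the block, HOXC4 (-0.68 ± 0.35 SE, adjusted p = 0.839) and HOXB8 (-1.19 ± 0.64 SE, adjusted p = 0.861) came next by p. A p that misses the threshold does not show that the depot pattern was alike in both treatments.

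Other genes of the HOX system were taken from lists. HOX proteins bind DNA with the PBX, MEIS and PKNOX homeodomain cofactors. The share of all genes called, given above, was 13.3% in control and 9.07% in BPA ewes, and the counts below are to be read against it. In control ewes 2 of 9 cofactor genes were higher in visceral fat and none lower: MEIS2 at 37.6 ± 0.97 against 20.1 ± 4.74 CPM (log2 0.91 ± 0.17 SE, adjusted p = 0.00709) and MEIS1 at 86.7 ± 9.15 against 60.0 ± 8.15 CPM (0.54 ± 0.14 SE, adjusted p = 0.0282). In BPA ewes MEIS2 (1.04 ± 0.20 SE, adjusted p = 0.013) and PKNOX1 (0.84 ± 0.20 SE, adjusted p = 0.0312) were called higher. The median log2 difference of the 9 was -0.09 in control and 0.52 in BPA ewes, beside -0.01 and 0.02 over all genes.

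Polycomb complexes keep HOX genes silent and Trithorax proteins keep them active. Of 23 Polycomb genes 1 was called in control ewes: EZH2, the methyltransferase of Polycomb complex PRC2, was lower in visceral fat at 5.83 ± 1.62 against 15.6 ± 2.92 CPM (log2 -1.42 ± 0.25 SE, adjusted p = 0.00511). In BPA ewes edgeR and DESeq2 called 0 of the 23, and EZH2 was at 0.02 ± 0.44 SE (adjusted p = 0.985); the difference between the 2 comparisons was not called (adjusted p = 0.718). Of 13 Trithorax genes and demethylases 2 were called, a share near that of all genes: PSIP1, a chromatin tether of the MLL complex (log2 0.63 ± 0.15 SE, adjusted p = 0.0228), and ASH1L, a histone methyltransferase (0.48 ± 0.12 SE, adjusted p = 0.0249), were higher in visceral control fat, and PSIP1 was also called in BPA ewes (0.82 ± 0.19 SE, adjusted p = 0.0246). The medians of both lists lay within -0.06 to 0.07 in both comparisons.

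Retinoic acid induces HOX genes of the low-number end in the embryo. Of 13 tested genes of retinoic acid and axial patterning, 3 were higher and 1 lower in visceral control fat. ALDH1A2, which makes retinoic acid in the embryo, averaged 54.2 ± 8.45 against 7.06 ± 3.43 CPM (log2 2.97 ± 0.30 SE, adjusted p = 0.000268), and its relative ALDH1A1 417 ± 48.3 against 86.5 ± 40.0 CPM (2.27 ± 0.28 SE, adjusted p = 0.000859). RXRG, a retinoid X receptor, was higher too (1.05 ± 0.26 SE, adjusted p = 0.0231), and CRABP2, which carries retinoic acid to the nucleus, was lower at 2.46 ± 1.71 against 18.1 ± 12.6 CPM (-2.86 ± 0.59 SE, adjusted p = 0.0114). In BPA ewes ALDH1A1 (1.71 ± 0.31 SE, adjusted p = 0.0119) and ALDH1A2 (2.72 ± 0.53 SE, adjusted p = 0.014) were higher and CRABP2 lower (-2.31 ± 0.46 SE, adjusted p = 0.0149). The list's median was -0.32 in control and -0.13 in BPA ewes. ALDH1A2 moved with the mesothelial markers given above; whether the 2 are linked was not tested.

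Genes flanking the clusters were read as neighbours, since they share the region but are not HOX genes. Of 15 tested, 3 were higher in visceral control fat and none lower: SKAP2, an adaptor gene beside HOXA (log2 1.55 ± 0.16 SE, adjusted p = 0.000273), CALCOCO2, an autophagy receptor gene (0.90 ± 0.18 SE, adjusted p = 0.00966), and CBX1, a heterochromatin protein gene (0.74 ± 0.20 SE, adjusted p = 0.034). In BPA ewes these 3 and SKAP1 were higher, and the medians of the 15 were 0.40 and 0.38. SKAP2 thus stood 2.92-fold higher in visceral control fat, in the opposite direction to HOXA6, HOXA9 and HOXA10.

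Of the 72 tested genes on these lists, edgeR called 0 between BPA and control subcutaneous fat, with 10 at an unadjusted p under 0.05, near the 14.2% of all genes, and DESeq2 called 1, ALDH1A3. In visceral fat edgeR and DESeq2 called 0, with 5 of 74 at an unadjusted p under 0.05 by edgeR, near the 7.47% of all genes.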

How the data were processed

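RNA was sequenced from visceral and subcutaneous fat, 4 libraries in each of 4 groups, after ribosomal RNA depletion with a low-input SMARTer kit, per the labels' protocols. The authors deposited whole-number read counts per gene, made with STAR 2.6.0c and featureCounts of Subread 1.6.1 after FastQC 0.11.5 and MultiQC 0.9, per the submitters' processing notes; the sources used here give no build, annotation or strand setting. The table's name calls it normalized, but 0 of its values are not whole and library totals differ, so they were read as counts. Members and lists were chosen with earlier results of these data known.

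Each comparison was fitted on its own 8 libraries, and the difference of differences on all 16, with edgeR 4.0.16 in R 4.3.3 (limma 3.58.1): TMM scaling, a filter of at least 10 counts in enough libraries and 15 in all, the quasi-likelihood test and Benjamini-Hochberg adjustment over all genes tested. Levels are CPM on TMM-scaled totals, and SEs are the fold change over the square root of F. Totals of 3.05 to 14.31 M counts set the precision; exact 95% intervals and floors of 3 counts cover counting error only. Replicates of a group correlated at up to 0.973, and none was taken for a copy.

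DESeq2 1.42.0, other filters (none, or 50 counts in 4 libraries), thinning to the lowest total, one fit over all 16 libraries, left-out libraries and the title number as a block were alternatives. Libraries of the same number correlated in their deviations at 0.287, 0.40 and 0.332 for controls 902, 924 and 928. Genes were named by a rule: those called between depots in control ewes without overlap, the highest per kilobase of each cluster, the smallest p of the other comparisons, and up to 3 of smallest p from each list; genes named beyond it, such as HOXC5, HOXC10, HOXB8 and RXRG, were chosen after their values were seen. The fitting was tested on simulated data. RefSeq symbols matched 36 of the 37 members; no sequence is printed. A HOX gene and a cofactor gene enter the counts and are not reported singly here.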

Additional observations from a re-analysis of the deposited data

Results flagged for a closer look

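In 9 of 116 groups of 4 libraries, a library stood apart from the other 3 by more than Dixon's 95% critical value, where chance gives about 1 in 20. In visceral control 924, HOXB5 was at 18.9 CPM against 7.0 to 8.99 in the others and HOXB6 at 167 CPM against 60.4 to 75.0. HOXB5 was also high in visceral BPA 918, at 18.2 CPM against 4.74 to 6.36. HOXB8 stood at 13.1 CPM in subcutaneous control 931, where the others had 2.19 to 3.44, and this library decided whether HOXB8 was called in 2 comparisons.

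HOXA3 was at 21.0 CPM in subcutaneous control 924 against 11.1 to 12.7. In subcutaneous BPA 918, HOXD3 was at 11.9 CPM against 5.57 to 6.50, and the HOXC sum at 57.4 CPM per kb against 45.5 to 47.0. HOXD8 was low in subcutaneous BPA 941, at 12.3 CPM against 23.8 to 25.8. HOXA9 was at 0.095 CPM in visceral control 908, from a single count, against 0 in the others.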

How the results depend on the processing

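The members called between depots kept their direction under every alternative that tested them. HOXB5 and HOXB6, not called in control ewes (log2 -0.03 and -0.05), turned to 0.92 and 0.79 under the replicate block there and were called. Between depots, 8 to 12 members were called in control ewes over 17 alternatives (8 to 10 leaving out 1 library) and 5 to 9 in BPA ewes over 16 (6 to 8 leaving out 1 library). Leaving out 1 library gave 0 to 1 called members for BPA in subcutaneous fat, the 1 being HOXB8 without control 931; BPA in visceral fat gave 0 in all 15 alternatives. With the title number as a replicate block, 1 member, HOXA9, was called in the difference of differences (log2 7.34, adjusted p = 0.0432), and 19 genes in all. Over all 24 alternatives the log2 value of HOXA9 ran from 3.34 to 7.34. The 7.34 is no measure of size, as the visceral controls in that estimate had 0 HOXA9 counts. In BPA ewes, libraries of the same number correlated at 0.167 (918, best match) and 0.031 (977, not), so with 2 pairs a pairing was not established, nor was it shown to be absent; with the number as a block 5 members were called, without HOXB2 (adjusted p = 0.0891) and HOXC6 (adjusted p = 0.126), and 892 genes in all. The block changed no other HOX call beside those given in the report. Counts over all genes moved more: depots in control ewes from 1928 to 1043 to 1755 without 1 library and 1138 without subcutaneous controls 902 and 924; depots in BPA ewes from 1250 to 369 to 2206 without 1 library, 2207 with DESeq2 and 2408 with all 16 libraries fitted; BPA in subcutaneous fat from 96 to 32 to 128 without 1 library, 464 with DESeq2, 173 with no filter, 54 with the strict filter, 46 with all 16 libraries and 0 without 902 and 924. DESeq2 gave 5 for BPA in visceral fat and 14 for the difference of differences, against 0 with edgeR. Over all 17 alternatives for depots in control ewes, the calls over all genes ran from 1043 to 2802. The causes of these shifts were not tested. Depth limits HOXA10, HOXC10 and every member beyond paralogue 10.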
